A study of Homo sapiens with 6 samples.

Results

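Genes of the cell cycle and of DNA replication were examined in U251 cells, an established human glioblastoma line, after knockdown of TRAF2, an adaptor protein of tumour necrosis factor receptors. The list held 56 genes chosen by name, with earlier results of these data known, out of 23002 genes with a value. It was split into 27 genes of the G1/S transition and DNA replication, 25 genes of G2 and mitosis (G2/M) and 4 brakes of the cycle. Messenger RNA was sequenced in 3 samples of stable cells carrying a non-targeting control lentivirus (sh-NC) and in 3 samples carrying a TRAF2-targeting short hairpin lentivirus (sh-TRAF2). The cells of both groups were selected with puromycin, and the hairpin used for sequencing is not given in the sources used here. The samples are called biological replicates, and nothing says whether they came from separately infected cultures, so that p-values measure the spread between these samples.

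A cell enters the cycle when cyclin D kinases and then cyclin E kinase inactivate RB1, which releases the E2F transcription factors. E2F1 and E2F2 switch on the genes that license replication origins, build deoxynucleotides and copy DNA, while E2F7 and E2F8 later switch the same genes off. The genes of mitosis are switched on afterwards by MYBL2 and FOXM1 with the MuvB complex, and their products build the spindle and separate the chromosomes.

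Expression was given as FPKM, the fragments on a gene scaled by its length and by the sequencing depth, which allows levels to be compared between genes. The groups were compared on log2(FPKM + 0.1) with limma over 11870 genes whose FPKM averaged 0.5 or more, and a gene was called when its Benjamini-Hochberg adjusted p was under 0.05. Reads on genes, recovered from the FPKM, numbered between 33999558 and 36823562 per sample. TRAF2 itself fell by 79.9%, from 16.3 ± 1.84 to 3.27 ± 0.054 FPKM (SD, n = 3). Of 7 markers of glioblastoma lines, 5 had a mean FPKM of at least 1, and the exceptions were the astrocyte markers GFAP (0.334 to 1.62) and S100B (0 to 0.0228). Of 8 markers of other cell types CD68 alone had a mean of at least 1, and the other 7 stayed at or below 0.0818 FPKM. The summed level of the glioblastoma line markers was 1437 to 1515 FPKM in sh-NC and 1791 to 1840 in sh-TRAF2. Most of this sum was VIM, with a mean of 1242 in sh-NC and 1582 in sh-TRAF2. CD44, the next highest, had means of 189 and 179. Of the 6 glioblastoma line markers tested, 4 were called higher (VIM, NES, GFAP and SLC1A3) and 0 lower. That is 66.7% higher, against 23.7% of all tested genes. CD44 and SOX2 were not called. The part of these markers in the results was not tested.

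More of the cycle genes were higher after TRAF2 knockdown than lower. All 56 genes were expressed enough to be tested, with 90 to 28392 reads each per sample, and 33 rose, 5 fell and 18 were not called. Among all tested genes 23.7% were called higher and 20.9% lower. The share of cycle genes called higher, 58.9%, stood above this background and the share called lower, 8.93%, stood below it. The genes and their classes were chosen with earlier results of these data known, so these shares are descriptions. How far the choice shaped them cannot be told. Their median log2 fold change was 0.24, against 0.02 over all genes. The 2 groups of samples did not overlap for 41 of the 56 genes (73.2%), against 55.5% of all tested genes. In RNA from whole cultures, a larger share of cells in a phase and more transcript per cell cannot be told apart.

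The median rise was larger for G1/S and replication genes than for G2/M genes. Of the 27 G1/S and replication genes, 19 rose and 2 fell (E2F7 and MYBL2), with a median log2 fold change of 0.38. Of the 25 G2/M genes, 14 rose and 0 fell, with a median of 0.23. At an unadjusted p under 0.05 the number of G2/M genes lower was also 0, as it was with limma-voom on reads. The G1/S and replication genes also changed more unequally. Their log2 fold changes had a standard deviation of 0.513 across genes, against 0.212 for G2/M genes and 0.354 for all tested genes. The difference G2/M median minus G1/S and replication median was -0.16, and -0.10 without sh-NC replicate 3. A log2 fold change above 0.5 was seen for 10 G1/S and replication genes and for 4 G2/M genes.

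**Figure D1:**
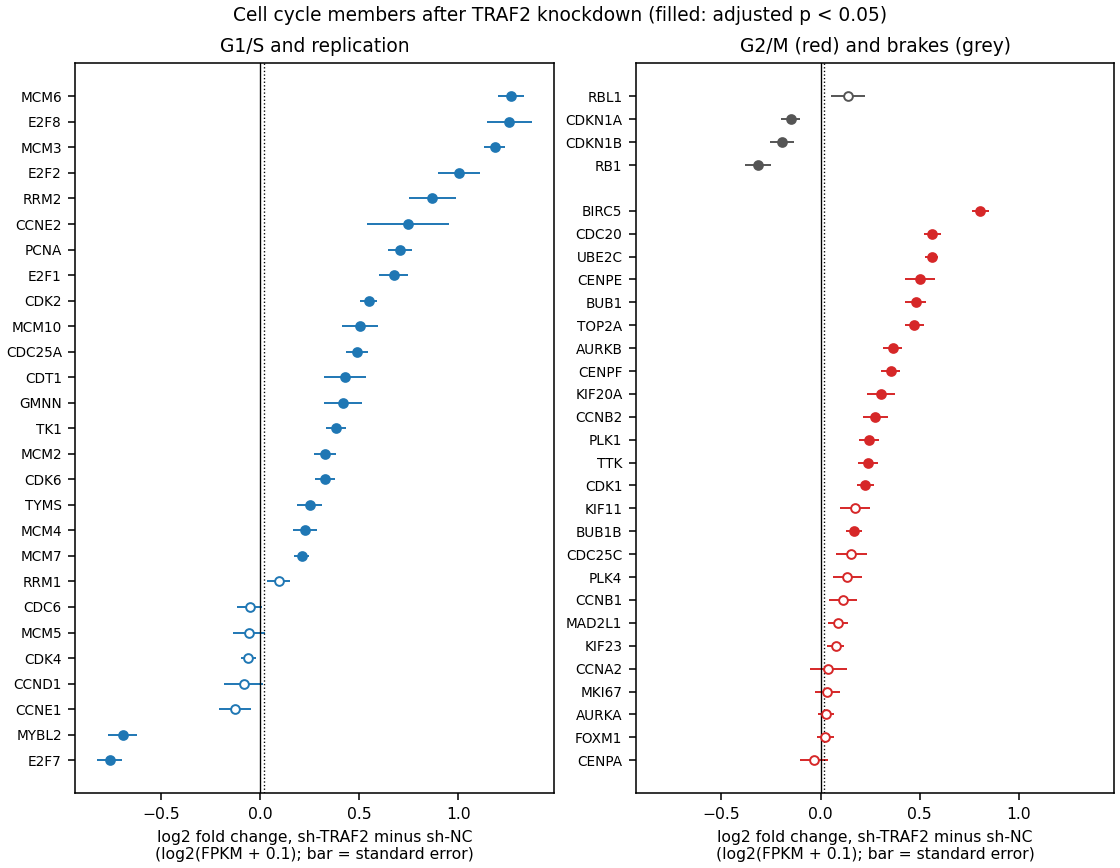
Log2 fold change of each of the 56 genes, sh-TRAF2 minus sh-NC, on the log2(FPKM + 0.1) scale (x axis), with its standard error, filled where the adjusted p was under 0.05, and with a dotted line at the median of all tested genes (0.02). The G1/S and replication genes spread from -0.76 (E2F7) to 1.26 (MCM6), whereas the G2/M genes lie between -0.03 (CENPA) and 0.81 (BIRC5).

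The contrast between the classes was read in each sample as the mean log2 difference from the sh-NC mean. In the sh-TRAF2 samples this was 0.373, 0.330 and 0.416 for G1/S and replication genes and 0.246, 0.252 and 0.268 for G2/M genes. The sh-NC samples lay at 0.0635, -0.0425 and -0.0211 for the former and at 0.0420, -0.0754 and 0.0334 for the latter. Each class was thus higher in every sh-TRAF2 sample than in any sh-NC sample, and in every sh-TRAF2 sample G1/S and replication genes stood above G2/M genes. The G2/M mean minus the G1/S mean was -0.127, -0.0785 and -0.149 in sh-TRAF2, and between -0.0329 and 0.0545 in sh-NC. These are descriptions of genes chosen together, and no p was computed for them. The sh-NC samples were not alike, since replicate 2 was the lowest of its group for 19 of the 25 G2/M genes (76.0%), against 36.3% of all tested genes. Without that sample the G1/S and replication count was still 19 higher and 2 lower, and the G2/M count 14 higher.

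**Figure D2:**
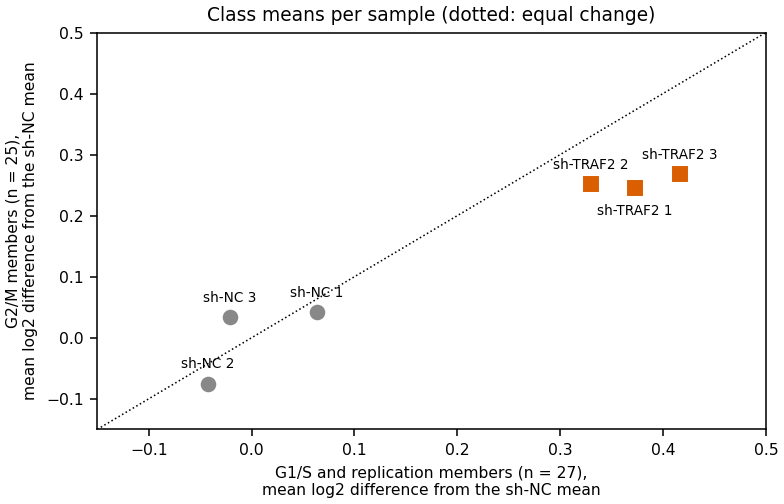
Mean log2 difference from the sh-NC mean over the 27 G1/S and replication genes (x axis) and the 25 G2/M genes (y axis), a point per sample, with a dotted line where both classes change equally. The 3 sh-TRAF2 samples lie at 0.330 or more on the x axis and below the dotted line, and the 3 sh-NC samples lie near 0.

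**Figure D3:**
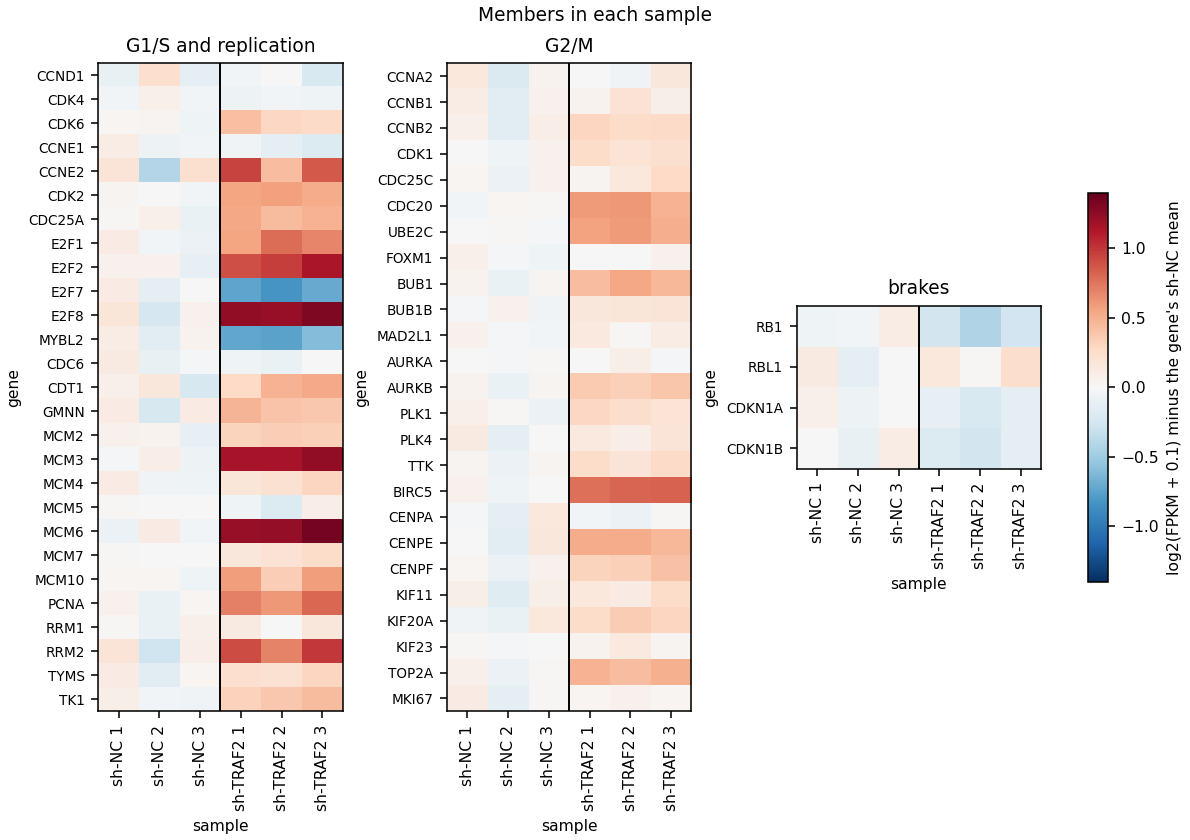
Each of the 56 genes (rows) in each of the 6 samples (columns), coloured by log2(FPKM + 0.1) minus the sh-NC mean of that gene, red for higher and blue for lower. Among the 27 G1/S and replication genes, E2F7 and MYBL2 are the clear blue rows in all 3 sh-TRAF2 samples, while MCM3, MCM6, E2F2 and E2F8 are the deepest red rows.

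The E2F factors did not move together. E2F1, the activator that first drives S phase genes, was at 11.8, 10.5 and 10.2 FPKM in sh-NC and at 15.9, 18.7 and 17.4 in sh-TRAF2, so the groups did not overlap. Its log2 fold change was 0.67 with a standard error of 0.074 and an adjusted p of 2.2e-04. E2F2, an activator of the same kind, was at 1.33, 1.32 and 1.16 FPKM in sh-NC and at 2.46, 2.56 and 2.91 in sh-TRAF2 (log2 fold change 1.00, adjusted p 1.62e-04). The repressors E2F7 and E2F8, which act as a pair of closely related proteins, moved in opposite directions. E2F7 was at 58.7, 49.9 and 54.7 FPKM in sh-NC and at 32.4, 30.5 and 33.3 in sh-TRAF2, with a log2 fold change of -0.76 with a standard error of 0.063 and an adjusted p of 5.51e-05. E2F8 was at 1.58, 1.16 and 1.45 FPKM in sh-NC and at 3.42, 3.36 and 3.57 in sh-TRAF2, with a log2 fold change of 1.26 with a standard error of 0.11 and an adjusted p of 8.76e-05. The level of E2F7 was far above that of E2F8 in every sample, so that the repressor that fell was the more abundant transcript. MYBL2, which also serves the mitotic genes, was at 35.9, 29.8 and 34.6 FPKM in sh-NC and at 20.1, 19.8 and 21.8 in sh-TRAF2, a fall with no overlap of the groups (log2 fold change -0.69, adjusted p 1.77e-04 from limma). The low levels of E2F2 and E2F8 make their fold changes depend on the pseudocount, and with a pseudocount of 1 they were 0.68 and 0.90.

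**Figure D4:**
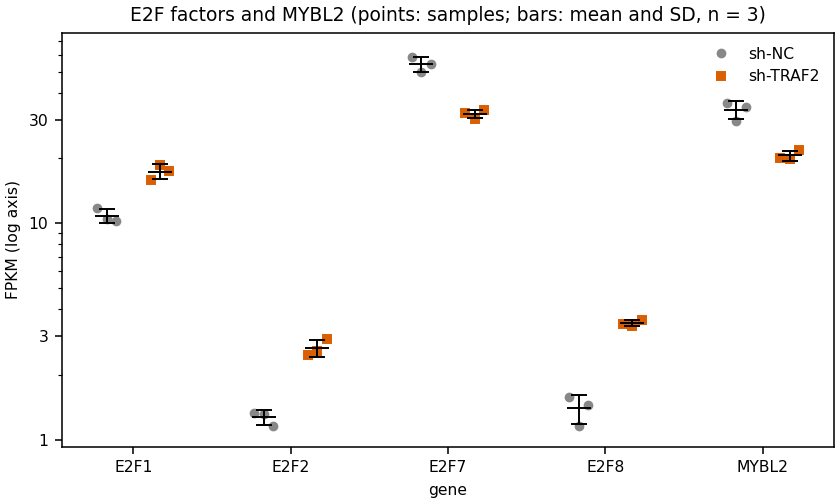
FPKM (log axis) of 4 E2F factors and MYBL2, with a point per sample and bars for the mean and SD (n = 3 per group). E2F1, E2F2 and E2F8 are higher in all 3 sh-TRAF2 samples, while E2F7 and MYBL2 are lower in all 3.

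Among the G1 cyclins and kinases, the kinase CDK2 and its activator had the smallest adjusted p, while the largest rise was that of CCNE2, described below. CDK2, which drives entry into S phase, was at 18.3, 17.9 and 17.5 FPKM in sh-NC and at 26.2, 26.7 and 25.6 in sh-TRAF2 (log2 fold change 0.55 with a standard error of 0.041, adjusted p 3.51e-05). CDC25A, the phosphatase that activates CDK2, was at 13.3, 13.9 and 12.4 FPKM in sh-NC and at 19.1, 18.0 and 18.5 in sh-TRAF2 (log2 fold change 0.49 with a standard error of 0.055, adjusted p 2.33e-04). The values of both genes were separated between the groups. CDK6 rose by 0.33 on the log2 scale, while its relative CDK4 had a log2 fold change of -0.06 and was not called. CCND1, the cyclin partner of both kinases and the highest of the 56 genes in sh-NC, was at 148, 187 and 144 FPKM in sh-NC and at 155, 158 and 137 in sh-TRAF2. The groups overlapped for CCND1 (log2 fold change -0.08, adjusted p = 0.519), and the sh-NC range alone covered all but 1 of the sh-TRAF2 values.

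The cyclin E genes encode the partners of CDK2. CCNE1 had a log2 fold change of -0.13 and was not called, whereas CCNE2 rose by 0.75 with a standard error of 0.21 (adjusted p 0.0191). The ratio of CCNE1 to CCNE2 was 3.51, 4.87 and 3.06 in sh-NC and 1.77, 2.44 and 1.70 in sh-TRAF2. The balance thus moved towards CCNE2 in each sample, although CCNE1 remained the higher transcript. CCNE2 was the lowest of the 56 genes, with a mean of 0.924 FPKM in sh-NC, and its call was lost in 3 of 15 other settings, among them without sh-TRAF2 replicate 1 (adjusted p 0.0687) and without sh-TRAF2 replicate 3 (adjusted p 0.062).

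Origin licensing loads the MCM2 to MCM7 helicase, a ring with a single copy of each of these subunits, onto DNA, with the help of CDC6 and CDT1. Of 11 licensing and clamp genes, 9 rose (81.8%) and 0 fell, against 23.7% and 20.9% of all tested genes. The counts were the same at an unadjusted p under 0.05 and with limma-voom. The subunits of the ring rose very unequally. MCM3 was at 15.9, 17.2 and 15.3 FPKM in sh-NC and at 35.8, 35.9 and 38.3 in sh-TRAF2, a rise to 2.28 times the level (log2 fold change 1.18 with a standard error of 0.054, adjusted p 3.79e-06). MCM6 was at 6.57, 7.58 and 6.81 FPKM in sh-NC and at 16.4, 16.5 and 17.8 in sh-TRAF2, a rise to 2.42 times (log2 fold change 1.26 with a standard error of 0.065, adjusted p 5.8e-06). In both genes the lowest sh-TRAF2 value lay far above the highest sh-NC value. MCM2, MCM4 and MCM7 rose by 0.33, 0.23 and 0.21 on the log2 scale, and MCM5 was not called (log2 fold change -0.05, with 4.04, 3.99 and 3.97 FPKM in sh-NC and 3.82, 3.50 and 4.26 in sh-TRAF2). MCM7 had the highest and MCM5 the lowest FPKM of the subunits in all 6 samples. MCM3 ranked in the 4th, 3rd and 4th place in sh-NC and in the 2nd place in every sh-TRAF2 sample. The call of MCM4 was lost without sh-NC replicate 3 (adjusted p = 0.0532) or without sh-TRAF2 replicate 3 (adjusted p = 0.061).

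PCNA, the sliding clamp of the DNA polymerases, was at 34.4, 30.8 and 33.6 FPKM in sh-NC and at 53.8, 50.2 and 57.4 in sh-TRAF2. All sh-TRAF2 values lay above the sh-NC values (log2 fold change 0.70 with a standard error of 0.06, adjusted p 6.67e-05). MCM10, which helps to start the helicase, rose by 0.50. CDT1 and its inhibitor GMNN rose alike, by 0.43 and 0.42, and the ratio of CDT1 to GMNN overlapped between the groups (1.63 ± 0.423 in sh-NC and 1.61 ± 0.198 in sh-TRAF2, SD, n = 3). CDC6 was not called, at 18.5 ± 1.55 FPKM in sh-NC and 17.8 ± 0.528 in sh-TRAF2 (SD, n = 3).

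**Figure D5:**
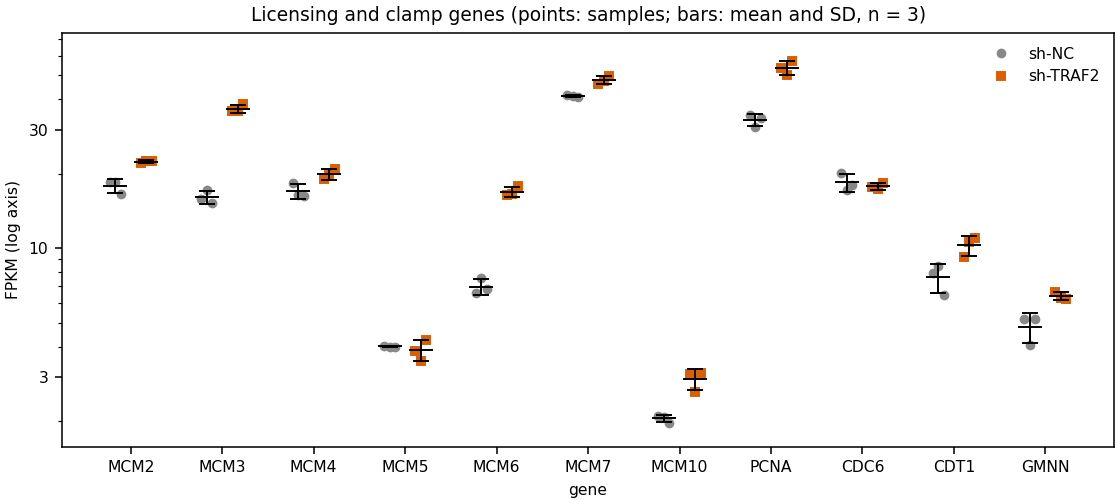
FPKM (log axis) of the 11 licensing and clamp genes, with a point per sample and bars for the mean and SD (n = 3 per group). MCM3, MCM6 and PCNA show the widest gaps between the groups, while the points of MCM5 and CDC6 overlap.

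Enzymes that supply deoxynucleotides rose in 3 of 4 cases and fell in 0, against 23.7% and 20.9% of all tested genes. RRM2, the small subunit of ribonucleotide reductase and the one made mainly in S phase, was at 69.3, 50.2 and 64.9 FPKM in sh-NC and at 115, 98.8 and 121 in sh-TRAF2 (log2 fold change 0.87 with a standard error of 0.12, adjusted p 6.56e-04). The large subunit RRM1 was not called, with a log2 fold change of 0.09. The ratio of RRM2 to RRM1 went from 1.80 ± 0.219 in sh-NC to 3.07 ± 0.138 in sh-TRAF2 (SD, n = 3) without overlap. TK1, a thymidine kinase, was at 60.3, 55.3 and 54.9 FPKM in sh-NC and at 71.3, 73.9 and 77.5 in sh-TRAF2 (log2 fold change 0.38, adjusted p = 4.7e-04 from limma). TYMS, which makes thymidylate, rose by 0.25.

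Of 8 genes of the mitotic cyclins, CDK1 and their switches, 4 rose and 0 fell, with 0 lower also at an unadjusted p under 0.05 and with limma-voom. CDK1, the kinase of mitotic entry, was at 30.9, 29.5 and 32.0 FPKM in sh-NC and at 36.9, 35.1 and 36.1 in sh-TRAF2, a separated but small rise (log2 fold change 0.23 with a standard error of 0.044, adjusted p 0.00385). Its partner CCNB1 was at 63.2, 52.9 and 61.4 FPKM in sh-NC and at 61.1, 67.9 and 62.5 in sh-TRAF2, so the groups overlapped (log2 fold change 0.11, adjusted p = 0.226). CCNB2 rose by 0.28, and CCNA2, CDC25C and FOXM1, with log2 fold changes of 0.04, 0.16 and 0.02, were not called. CDC20 and UBE2C act with the anaphase-promoting complex, which ends mitosis by destroying cyclin B, and had the smallest adjusted p of these 8 genes. CDC20, an activator of the complex, was at 63.9, 67.1 and 66.6 FPKM in sh-NC and at 99.5, 100.4 and 92.2 in sh-TRAF2 (log2 fold change 0.56 with a standard error of 0.043, adjusted p 3.75e-05). UBE2C, a ubiquitin-conjugating enzyme, was at 110, 111 and 108 FPKM in sh-NC and at 162, 166 and 156 in sh-TRAF2 (log2 fold change 0.56 with a standard error of 0.034, adjusted p 1.23e-05). For both genes the sh-TRAF2 samples lay well above all sh-NC samples.

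Of 9 mitotic kinase and spindle checkpoint genes, 6 rose (66.7%) and 0 fell, against 23.7% and 20.9% of all tested genes. The number lower was 0 also at an unadjusted p under 0.05 and with limma-voom. BIRC5 (survivin), a subunit of the chromosomal passenger complex, was at 22.3, 20.4 and 21.4 FPKM in sh-NC and at 36.7, 37.7 and 37.9 in sh-TRAF2 (log2 fold change 0.81 with a standard error of 0.044, adjusted p 7.96e-06), the largest rise of the G2/M genes. AURKB, the kinase of the same complex, rose by 0.36. BUB1, a spindle checkpoint kinase, was at 20.7, 18.8 and 20.6 FPKM in sh-NC and at 27.1, 29.1 and 27.7 in sh-TRAF2 (log2 fold change 0.48 with a standard error of 0.052, adjusted p 2.09e-04). PLK1, TTK and BUB1B rose by 0.24, 0.24 and 0.17. AURKA, MAD2L1 and PLK4, with log2 fold changes of 0.03, 0.09 and 0.13, were not called.

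Of 8 centromere, kinesin and chromosome genes, 4 rose and 0 fell, with 0 lower also at an unadjusted p under 0.05 and with limma-voom. TOP2A, the topoisomerase that untangles chromosomes, was at 34.6, 31.2 and 33.4 FPKM in sh-NC and at 46.4, 44.7 and 46.6 in sh-TRAF2 (log2 fold change 0.47 with a standard error of 0.047, adjusted p 1.3e-04). CENPF, a kinetochore protein, was at 28.3, 26.3 and 28.9 FPKM in sh-NC and at 34.6, 34.9 and 37.0 in sh-TRAF2 (log2 fold change 0.35 with a standard error of 0.049, adjusted p 7.23e-04). In both genes every sh-TRAF2 sample was above every sh-NC sample. MKI67, which encodes the proliferation marker Ki-67, was at 27.3, 22.9 and 25.5 FPKM in sh-NC and at 25.6, 26.2 and 25.6 in sh-TRAF2. The sh-TRAF2 values of MKI67 lay inside the sh-NC range (log2 fold change 0.03 with a standard error of 0.063, adjusted p 0.68). The kinesin genes KIF11 and KIF23 were not called, KIF20A and the kinetochore motor CENPE rose by 0.31 and 0.50, and CENPA was not called.

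Of the 4 brakes of the cycle, 3 fell and 0 rose, against 20.9% and 23.7% of all tested genes. The number higher was also 0 at an unadjusted p under 0.05 and with limma-voom. With 4 genes, a count of 0 tells little. RB1, the retinoblastoma protein that holds back E2F, was at 15.5, 15.8 and 17.4 FPKM in sh-NC and at 13.6, 12.1 and 13.4 in sh-TRAF2, without overlap (log2 fold change -0.32 with a standard error of 0.065, adjusted p 0.00488). Its relative RBL1 was not called, with a log2 fold change of 0.14. CDKN1A (p21), an inhibitor of cyclin-dependent kinases, was at 108, 97.6 and 103 FPKM in sh-NC and at 94.9, 88.7 and 93.8 in sh-TRAF2 (log2 fold change -0.15 with a standard error of 0.046, adjusted p 0.0274). CDKN1B (p27), an inhibitor of the same family, was at 29.7, 27.6 and 31.9 FPKM in sh-NC and at 25.9, 24.7 and 27.1 in sh-TRAF2 (log2 fold change -0.20 with a standard error of 0.061, adjusted p 0.0299). The groups did not overlap for either inhibitor, but their nearest values lay close together. Each of these 2 calls was lost in 6 of 15 other settings, in each case among them without sh-NC replicate 1 (adjusted p 0.0965 for CDKN1A and 0.0742 for CDKN1B), without sh-NC replicate 3 (0.0626 and 0.0893) and without sh-TRAF2 replicate 2 (0.0942 and 0.0982). The CDKN1A call was also lost without sh-TRAF2 replicate 3 (0.0545), and the CDKN1B call without sh-TRAF2 replicate 1 (0.069). The ratio of CDKN1A to CDKN1B overlapped between the groups.

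At the thresholds of the study, which add an absolute log2 fold change above 1, 4 of the 56 genes were called higher (MCM6, E2F8, MCM3 and E2F2) and 0 lower, against 0.986% and 0.733% of all tested genes. All 4 belonged to the G1/S and replication class. The number lower was also 0 at an unadjusted p under 0.05 and with limma-voom. For every gene whose groups did not overlap, the two-sided exact permutation test over samples gave p = 0.1, the smallest that 3 samples against 3 allow.

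Wider lists of the same machinery were read for comparison. Among all tested genes 23.7% were called higher and 20.9% lower. Of 34 other G1/S and replication genes, 15 rose (44.1%) and 4 fell (11.8%), with a median log2 fold change of 0.14. RFC2, a subunit of the loader that places PCNA on DNA, rose by 0.63 (adjusted p = 1.98e-05 from limma). UHRF1, which carries DNA methylation through replication, rose by 0.95, and CLSPN, an adaptor of the replication checkpoint, rose by 0.65. Of 39 other G2/M genes, 24 rose (61.5%) and 0 fell, with a median of 0.18. At an unadjusted p under 0.05, 1 of them was lower, and with limma-voom 0. PTTG1 (securin) rose by 0.63, and PRC1 and ANLN, which act in cytokinesis, rose by 0.65 and 0.47, although other exons cover 64.9% of the exon bases of PRC1. In these wider lists the G1/S median did not exceed the G2/M median, so the order of the 2 classes among the 56 genes was not seen there.

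Other cyclins, inhibitors and checkpoint regulators went both ways, with 7 higher (30.4%) and 7 lower (30.4%) of 23 tested, against 23.7% and 20.9% of all tested genes. CCNG1, which encodes cyclin G, fell by 0.44 (adjusted p 7.51e-05 from limma). RBBP4, a histone-binding subunit of the MuvB complex among others, rose by 0.45, with 6 pseudogenes named after it. The genes CDKN2A, CDKN2B and CDKN2C of this list had no value under these names among the 23002 genes, and CCND2 was too low to be tested.

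The promoters of the 2 classes were also read, and any part of them in the changes was not tested. RefSeq (GRCh38.p14) gave a promoter of 300 bases, from 250 before to 50 after the start, for 45 of the 56 genes. It was searched on both strands for the E2F words TTTCCCGC, TTTCGCGC, TTTGGCGC and TTTGCCGC, for the cell cycle homology region (CHR) words TTTGAA and TTCGAA, and for CCAAT, which is bound by NF-Y. No word of a kind contains a word of another, but matches may share bases. The windows of 30 bases below carry in capitals the E2F words of 4 G1/S and replication genes, followed by the CHR word of 4 G2/M genes, 5′ to 3′ on the strand of the gene.
MCM3 (chr6:52284728-52284757, minus strand): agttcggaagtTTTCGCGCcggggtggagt
MCM6 (chr2:135876511-135876540, minus strand): ggtcaggTTTGGCGCGAAAtctccagctcc
E2F1 (chr20:33686387-33686416, minus strand): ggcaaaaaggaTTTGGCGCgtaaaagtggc
PCNA (chr20:5126663-5126692, minus strand): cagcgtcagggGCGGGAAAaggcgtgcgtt
CDC20 (chr1:43358904-43358933, plus strand): cgacggttggatTTTGAAggagccaatagg
CDK1 (chr10:60778158-60778187, plus strand): gagtataataaaTTTGAActgtgccaatgc
PLK1 (chr16:23678848-23678877, plus strand): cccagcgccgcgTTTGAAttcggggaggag
MKI67 (chr10:128126435-128126464, minus strand): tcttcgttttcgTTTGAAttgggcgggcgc

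In the PCNA window the E2F word lies on the opposite strand and is read as its reverse complement, while the MCM6 window holds a word on each strand, which share bases. An E2F word was found in 11 of 21 promoters of G1/S and replication genes (52.4%) and in 2 of 20 of G2/M genes. Over all 27305 promoters the share was 3.33%, and over the 9785 promoters of tested genes it was 5.58%. A CHR word was found in 14 of 20 promoters of G2/M genes (70.0%) and in 2 of 21 of G1/S and replication genes (9.52%). That share was 16.6% over all promoters and 11.5% over those of tested genes. CCAAT was found in 80.0% of the G2/M promoters, 35.7% of all promoters and 37.5% of those of tested genes. Of the 11 G1/S and replication genes with an E2F word 10 rose and 0 fell, with a median log2 fold change of 0.49, and of the 10 without such a word 5 rose and 2 fell, with a median of 0.21. CDC6 was the exception that holds the word and was not called. Of the 14 G2/M genes with a CHR word 8 rose, with a median of 0.20, and of the 6 without 3 rose, with a median of 0.23. The 2 G2/M genes with an E2F word had a median of 0.10, and the 18 without had a median of 0.21. In the G1/S and replication class, genes with an E2F word were thus higher in the median. In the G2/M class the medians with and without a CHR word differed by little. The E2F comparison in that class rested on 2 genes. Neither E2F7 nor MYBL2, which fell, holds an E2F word in this window. The same holds for the 5 genes without a word that rose, RRM2 and TK1 among them. Only the exact words listed were searched, so a promoter without them may still hold an E2F site. Among tested genes outside the list, 25.4% of 532 genes with an E2F word were called higher, against 23.4% of 9208 without. The same shares were 27.5% of 1106 genes with a CHR word and 23.0% of 8634 without. These are descriptions of letters in a window, with no test.

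Some of these values rest on shared exons, since the use of strand in counting is not given in the sources used here. In the GENCODE release 29 annotation, exons of other genes cover 46.6% of the exon bases of TYMS (ENOSF1 and TYMSOS), 43.2% of CDK4 (TSPAN31) and 37.1% of CCNE2 (INTS8 and AC087752.4), all on the other strand. They cover 23.6% of MCM2, 20.2% of RRM2 (AC007240.1, on its own strand) and 16.8% of CDK2. MCM3, MCM5, MCM6, PCNA, E2F1, E2F2, E2F7, MYBL2, BIRC5, CDC20 and UBE2C overlap no other exon. Pseudogenes named after a gene exist for UBE2C (4), PCNA (3), RRM2 (3), TYMS (2) and AURKA (2), and reads could be split with them. BUB1, CCNB2, CDC20, CDK4 and MKI67 have 1 each.

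The heptamer ATTCCAC lies in the middle of the target of a TRAF2 hairpin of the study. That hairpin may or may not be the sequenced one. No other word of its target was looked up, so pairing through other parts of the hairpin is not covered. ATTCCAC was looked up in the longest 3′ untranslated region of each gene. It was held by 11.5% of 10822 tested genes, and these 1247 genes had a median log2 fold change of -0.10, against 0.02 for the others. Of the 56 cycle genes it was held by 3 (CDK2, CDK6 and RBL1), and by 0 of the 5 genes that fell. With a share of 11.5% over tested genes, 5 genes are too few for that count to tell anything. No word of the other TRAF2 hairpin was looked up. The 5 are E2F7, MYBL2, RB1, CDKN1A and CDKN1B, and any part of the hairpin in their change was not tested.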

How the data were processed

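RNA was extracted with TRIzol, and OE Biotech prepared, sequenced and processed the libraries (VAHTS Universal V6 kit). A single table of FPKM, in which each sample has a column, was deposited by the authors. The submitters' processing notes name HISAT2, HTSeq, R 3.2.0 and DESeq2 without roles, and the genome build, annotation and strand setting are not given in the sources used here. Groups came from the sample titles, and all 6 columns were assigned.

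From the deposited FPKM, log2(FPKM + 0.1) was compared between groups by limma 3.58.1 under R 4.3.3 (two-sided moderated tests, eBayes set to trend), for genes averaging 0.5 FPKM or more and with Benjamini-Hochberg adjustment over all of them. The pseudocount pulls fold changes of low genes towards 0. The FPKM of a gene are whole multiples of a step, so the lowest set of whole reads that fits every sample was taken (100% of 20359 genes with reads in 2 samples or more, within 1e-04 reads). Genes with a value in 1 sample only (2643) were set to 1 read. In simulated data for this comparison, 200 of 11870 genes were changed, by 1 or by 0.5 on the log2 scale. Of the genes changed by 1, 91.0% were called, and of those changed by 0.5, 67.0%, with 9 unchanged genes called. In the data themselves 44.6% of genes were called, so these rates need not hold there.

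The cycle genes, the lists, and the assignment of genes to classes were chosen with earlier results of these data known. Given in full were the 2 genes of each list with the smallest adjusted p and 9 genes fixed by name, while any of the 56 could be named, and in each wider list the 3 called genes with the smallest adjusted p, of which 1 is not reported here. Alternatives were quantile normalization, TPM scaling, pseudocounts of 1 and 0.01, an average of 1 FPKM or more or no filter, no eBayes trend, a replicate block, limma-voom on recovered reads (a mean of at least 10), each sample left out, and the fold-change threshold of the study. Promoters were matched by NCBI Gene number. Python 3.11.15, numpy 2.4.6, pandas 2.3.3 and matplotlib 3.10.9 were used.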

Additional observations from a re-analysis of the deposited data

How the results depend on the processing

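Of 173 comparisons of a count or median with an alternative, 158 held and 15 moved; of 990 comparisons of single genes 971 held, 17 lost and 2 gained a call. The sign of the log2 fold change turned in 13 comparisons, over 8 genes (CCNA2, AURKA, MKI67, FOXM1, CDC6, CCND1, CENPA and MCM5), of which 0 were called as reported and 0 in the alternative. With the added threshold of an absolute log2 fold change above 1, 117 of all tested genes were higher and 87 lower, 4 of the 56 cycle genes were higher and 0 lower, 4 G1/S and replication genes were higher and 0 lower, and 0 G2/M genes were higher, since small changes are then left out. The number of cycle genes lower was 3 with no filter on low values and 3 with eBayes without a trend, in both cases without CDKN1A and CDKN1B. With quantile normalization the median log2 fold change of G1/S and replication genes was 0.33 and CDK4 was called lower (-0.13, adjusted p = 0.0134 from limma). The cause was not tested. With each sample left out in turn, the number of cycle genes lower ranged from 3 to 5 (3 without sh-NC replicate 1, sh-NC replicate 3 or sh-TRAF2 replicate 2), the G1/S and replication median from 0.32 to 0.43, and the G2/M median minus the G1/S and replication median from -0.20 to -0.10, where without sh-NC replicate 3 it was -0.10. It was -0.16 in the full fit.

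The groups share replicate numbers, but samples with the same number did not deviate together (correlations of -0.0812, 0.0722 and 0.0728 across genes), so the numbers were not taken as pairs. With the replicate block 34 cycle genes were higher and 5 lower, where KIF11 was added (adjusted p = 0.0344 from limma), and not every sample correlated best with its own number. Depth was least for CCNE2, with 90 reads in its lowest sample.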
